A study of Mus musculus with 23 samples.

Results

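Axon guidance ligands and receptors were taken as the protein-coding genes of the mouse annotation whose symbols name a semaphorin of classes 3 to 7, a plexin, a neuropilin, a Slit, a Robo receptor, an Eph receptor, an ephrin, a netrin, an Unc5 receptor or Dcc. The rule found 69 genes of the 21938 protein-coding genes on chromosomes 1 to 19, X and Y. Their contacts with CTCF, the zinc finger protein that organises chromatin loops and also binds RNA, were read from iCLIP2, a method that freezes protein on RNA with UV light and maps the linked nucleotide from where reverse transcription stopped. All groups came from the mouse E14 embryonic stem cell line carrying CTCF-mAID-eGFP, a fusion whose endogenous CTCF is degraded by 5-Ph-IAA, and a Flag-Halo-tagged rescue CTCF induced by doxycycline. All received 1 µM 5-Ph-IAA and 1 µg/mL doxycycline for 24 hours, and nuclear RNA was recovered with an antibody to Flag. The rescue protein was wild type (WT) or carried a small deletion in zinc finger 1 (ΔZF1), and cells were embryonic stem cells (ESCs) or neural progenitor cells (NPCs), obtained by keeping the ESCs for 2 days in N2B27 medium on laminin. The UV dose was 400 mJ/cm2 at 254 nm, and controls without UV (noXL) were made from the WT rescue line of both cell types. NPC WT comprised 3 libraries and each of the other 5 groups 4.

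Axon guidance molecules steer growing axons and migrating cells, and many also act between epithelial, vascular and stem cells. Semaphorins bind plexins, for the secreted class 3 proteins usually together with a neuropilin. Slits bind Robo receptors, netrins bind Dcc and Unc5 receptors, and ephrins, which stay on the membrane, bind Eph receptor tyrosine kinases.

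The values below are numbers of crosslink sites called on the merged libraries of each group, 1 list per group. No value has a replicate error, and no test between groups could be run. A range given after a value is a 95% Wilson interval, or one derived from it, and such intervals cover counting error only, and neighbouring sites are not independent. The depth behind the lists is unknown, and a list grows with depth. Ratios were therefore taken relative to all sites inside genes in a list, which for WT, ΔZF1 and noXL numbered 429119, 217770 and 150821 in ESCs and 230147, 153211 and 102002 in NPCs. More contacts per RNA, more RNA per cell and more cells of a type cannot be told apart in such counts. The labels of the cell types were set against markers. With WT, the 9 stem cell markers held 1312 sites in ESCs against 51 in NPCs, with Esrrb at 460 and 0. Not every marker separated the cell types. Pou5f1 held 37 and 14 sites, a scaled log2 ratio of NPCs to ESCs of -0.44 (-1.38 to 0.37). Dppa5a held 8 and 7, and the interval of its ratio (-0.70 to 2.11) also spanned 0. The intervals of the remaining stem cell markers lay below 0. Of the 8 neural progenitor markers, Nes held 2 and 28 sites and Cdh2 0 and 9, Sox2, which stem cells also express, held 35 and 9, and Sox1, Pax6, Hes5, Zic1 and Fabp7 held none in either WT list. The 6 neuron markers held 41 sites in ESCs against 10 in NPCs, on Stmn2 (31 and 3) and Tubb3 (10 and 7). The 7 mesoderm and endoderm markers and the 3 neural crest markers held no site in any list.

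The nucleotides themselves are shown first for the genes the results turn on. Each line is the 21 nt of RNA around the highest-scoring site of a gene in the named list, 5′ to 3′, read from GRCm38 (mm10), with the site in capitals. Plxna1, Plxnb2, Epha4 and Sema3e held at least 100 sites in both WT lists together, and the other genes were chosen after their values were seen, because they stood at an end of a comparison.
Plxna1 in ESC WT, chr6:89320610-89320630, minus strand, coding exon: cgccaaguacAaggacgaggu
Plxna1 in NPC WT, chr6:89318412-89318432, minus strand, 3′ UTR: ggggcauuucUgccacccugc
Plxnb2 in ESC WT, chr15:89156054-89156074, minus strand, 3′ UTR: accagcuccuUccaauggcac
Plxnb2 in NPC WT, chr15:89167973-89167993, minus strand, coding exon: cugaccuuucUaggucucacg
Epha4 in ESC WT, chr1:77515075-77515095, minus strand, 5′ UTR: ccuaacuuaaGcauuuauucc
Epha4 in NPC WT, chr1:77506720-77506740, minus strand, coding exon: cuagcccaguUuccugauacc
Sema3e in NPC WT, chr5:14026253-14026273, plus strand, intron: uucuggagaaGuucacucacc
Sema3c in NPC WT, chr5:17574737-17574757, plus strand, 5′ UTR: acuugccauuCacuccgcggu
Efnb2 in NPC WT, chr8:8661231-8661251, minus strand, 5′ UTR: gcccggcgcgCugacucuccg
Unc5b in NPC WT, chr10:60779745-60779765, minus strand, coding exon: gcaagaacuuUgaccaggagc
Slit3 in NPC ΔZF1, chr11:35121497-35121517, plus strand, 5′ UTR: ugcgggcgcuUgugcaccaug
Efna5 in NPC ΔZF1, chr17:62817758-62817778, minus strand, intron: caggacuaggAuuagugagau
Ntn1 in ESC ΔZF1, chr11:68211902-68211922, minus strand, 3′ UTR: ggucagguucUugggguccaa
The Epha4 site of ESC WT lay at nt 4 of the gene and the Efnb2 site at nt 2, so the first bases of those windows lie upstream of the annotated start. No highest-scoring site of Plxna1, Plxnb2 or Epha4 was the same in ESCs and NPCs.

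Most guidance genes carried few or no sites. Of the 69 genes, 19 held no site in any list, 22 held at least 1 but under 5 in every list, and 28 held at least 5 in some list. For WT, ΔZF1 and noXL, the number with at least 5 sites was 14, 14 and 10 in ESCs and 20, 16 and 16 in NPCs, out of 69. Among all protein-coding genes the corresponding shares were 35.6%, 31.6% and 27.8% in ESCs and 33.4%, 28.1% and 22.9% in NPCs. The genes without a site included Sema3a, Sema3d, Nrp1, Epha3, Epha5, Ephb1, Plxnd1, Ntn4 and Unc5c. Sema3a is the classical repellent of the family and Nrp1 its binding receptor.

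Guidance genes together held 647, 529 and 302 sites in ESCs for WT, ΔZF1 and noXL, and 796, 604 and 359 in NPCs. These were 0.151% of the genic sites in ESC WT (0.140 to 0.163%) and 0.346% in NPC WT (0.323 to 0.371%). The share was also higher in NPCs than in ESCs with ΔZF1 (0.394% against 0.243%) and without UV (0.352% against 0.200%). The 5 leading genes of each list held from 51.3% (NPC ΔZF1) to 72.2% (ESC WT) of its guidance sites. Plxna1, Epha4 and Sema4b held 56.3% of the guidance sites of ESC WT, and Sema3e, Plxna1 and Plxnb2 held 43.2% of those of NPC WT.

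**Figure D1:**
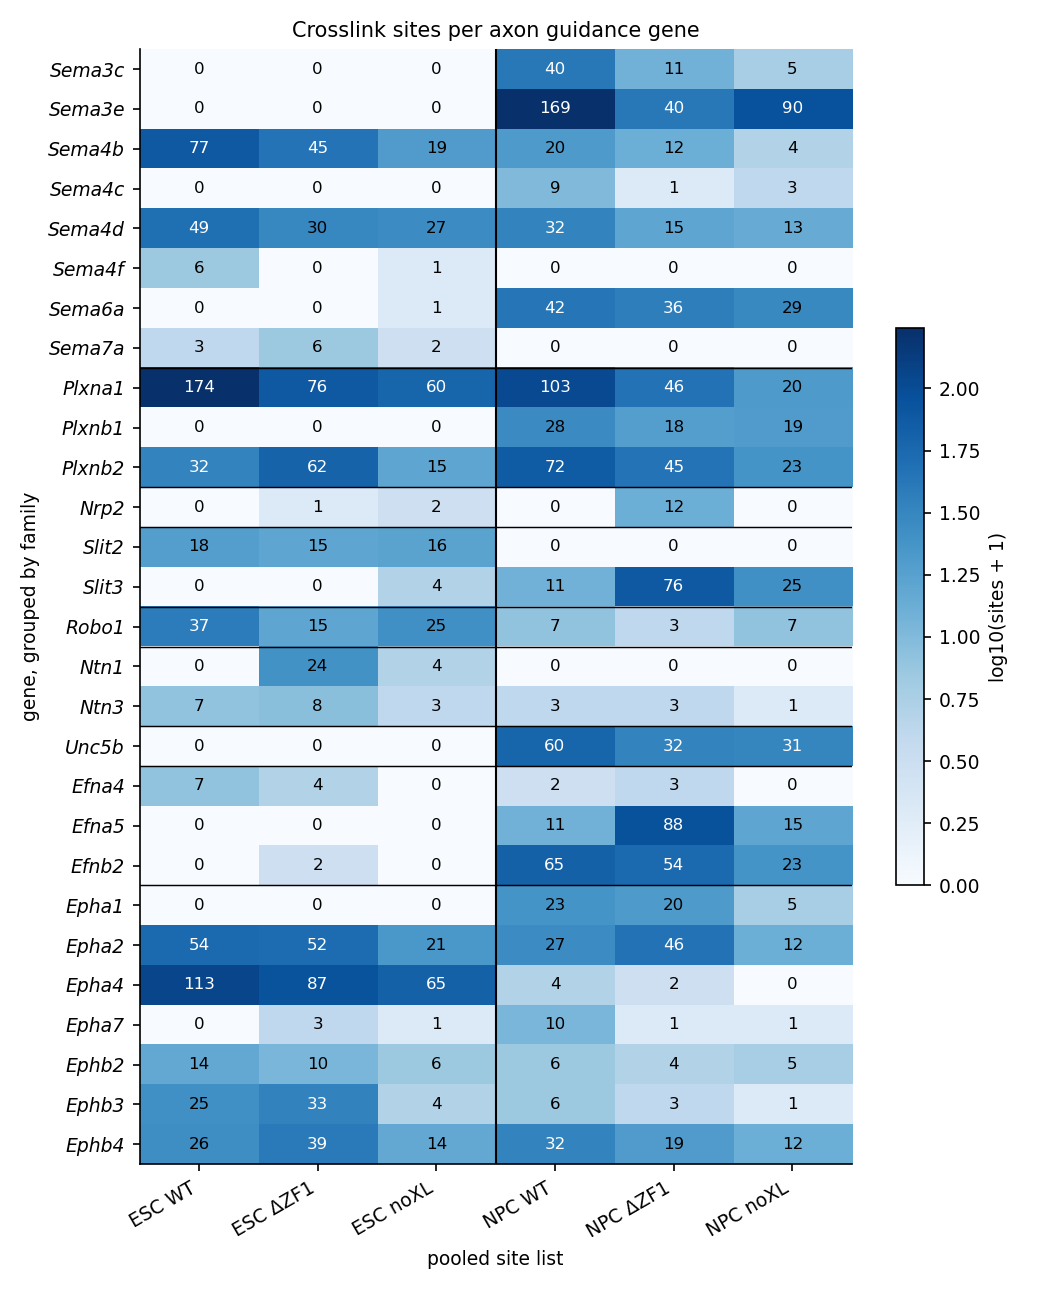
Sites on the 28 axon guidance genes with at least 5 sites in any list (rows, grouped by family from semaphorins at the top to Eph receptors at the bottom) in the 6 pooled lists (columns). The colour is log10(sites + 1) and the number in each cell is the count, which is not scaled to list length. Sema3c, Sema3e, Plxnb1, Unc5b and Epha1 have counts in the NPC columns only, while Epha4 has its counts almost entirely in the ESC columns.

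By family, Eph receptors held most sites in each ESC list and semaphorins in NPC WT and NPC noXL, whereas ephrins held most in NPC ΔZF1, with 148 against 116 for semaphorins. With WT, the 14 Eph receptors held 232 sites in ESCs against 110 in NPCs. This and the following family counts are not scaled, and ESC WT held 429119 genic sites against 230147 in NPC WT. The 9 plexins held 207 and 205, and the 20 semaphorins 135 and 318, or 135 and 149 without Sema3e. The 8 ephrins held 7 and 82, and the 5 genes of the Unc5 and Dcc group 4 and 60, all 60 of them on Unc5b. Of the 4 Robo genes Robo1 alone held at least 5 sites in a list, and the 2 neuropilins held none in either WT list.

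The first comparison asked which guidance RNAs held sites after differentiation. The comparison was limited to genes with at least 20 sites in the lists compared. That limit left 17 guidance genes for NPC WT against ESC WT and 52 under it. A gene with no sites in ESC WT could pass only through its NPC WT sites, so it had to differ. With a scaled log2 ratio of at least 1 as higher and at most -1 as lower, 9 of the 17 were higher in NPC WT and 2 were lower. Among all 6730 genes with as many sites, 11.5% were higher and 10.4% lower. The median over the 17, which includes the genes that had to differ, was 1.19, against 0.04 over all those genes. All but 2 of the 9 higher genes had no ESC WT site.

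Sema3e, a secreted class 3 semaphorin that signals through a class D plexin, was the guidance gene with most NPC WT sites. It lies at chr5:14025276-14256689 on the plus strand. Its NPC sites numbered 169 (WT), 40 (ΔZF1) and 90 (noXL), and the 3 ESC lists had none. This pattern was known when the gene set was chosen and is given as a description. Against a floor of 3 sites, NPC WT held at least 56.3-fold more sites than ESC WT before scaling, NPC ΔZF1 at least 13.3-fold more than ESC ΔZF1 and NPC noXL at least 30.0-fold more than ESC noXL. Sema3e alone accounted for 21.2% of the guidance sites of NPC WT and 25.1% of those of NPC noXL.

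Other semaphorins went both ways. Sema3c, another secreted class 3 protein, held 40, 11 and 5 sites in the NPC lists for WT, ΔZF1 and noXL and none in ESCs. Sema6a, a transmembrane semaphorin, held 42, 36 and 29 sites in the NPC lists, and 1 site in ESC noXL was its only ESC site. Sema4c held 9 sites in NPC WT and none in ESC WT. The class 4 genes Sema4b and Sema4d instead held sites in both cell types. Sema4b held 77, 45 and 19 sites in the ESC lists, in the same order, and 20, 12 and 4 in the NPC lists, with a scaled log2 ratio of -0.99 (-1.75 to -0.34) for NPC WT against ESC WT. Sema4d held 49, 30 and 27 ESC sites and 32, 15 and 13 NPC sites, and its ratio of 0.30 (-0.35 to 0.92) spanned 0. Sema4f held 6 sites in ESC WT, 1 of them on uridine, and 1 in ESC noXL, and had none in NPCs.

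Among the ligands of other families, members of 1 family differed in the cell type that held their sites. Efnb2, a transmembrane ephrin known from arterial and neural tissue, held 65, 54 and 23 sites in the NPC lists, against 2 in ESC ΔZF1 and none in the other ESC lists. That is at least 21.7-fold more in NPC WT than in ESC WT before scaling. Efna5, a lipid-anchored ephrin, held 11, 88 and 15 sites in the NPC lists and none in ESCs. Efna4 held 7 ESC WT sites and 2 NPC WT sites. The midline repellent genes Slit2 and Slit3 did not share a cell type. Slit2 held 18, 15 and 16 sites in ESCs and none in NPCs, whereas Slit3 held 11, 76 and 25 sites in NPCs and 0, 0 and 4 in ESCs. The netrin gene Ntn1 held 24 sites in ESC ΔZF1, 4 in ESC noXL and none in the other 4 lists.

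Receptors also differed by gene. Epha4, a receptor that binds ephrins of both classes, lies at chr1:77367185-77515088 on the minus strand and held 113, 87 and 65 sites in the ESC lists, against 4, 2 and 0 in the NPC lists. Its scaled log2 ratio for NPC WT against ESC WT was -3.61 (-5.31 to -2.54), the lowest of the 17. Robo1, a Slit receptor, followed at -1.35 (-2.64 to -0.37), with 37 ESC WT sites and 7 NPC WT sites. Ephb3 held 25 and 6 sites, and its ratio of -0.99 (-2.41 to 0.09) spanned 0.

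Receptors among the 9 higher genes were Unc5b, Plxnb1, Epha1, Plxnb2 and Ephb4. Epha7, under the limit of 20 sites, held 10 sites in NPC WT and none in ESC WT. Unc5b, a netrin receptor, held 60, 32 and 31 sites in the NPC lists and none in ESCs, at least 20-fold more in NPC WT than in ESC WT before scaling. Plxnb1, a receptor for Sema4d, held 28, 18 and 19 sites in NPCs and none in ESCs. Epha1 held 23, 20 and 5 sites in NPCs and none in ESCs. Plxnb2 held 32 ESC WT sites and 72 NPC WT sites, a scaled log2 ratio of 2.04 (1.47 to 2.67). Ephb4 held 26 and 32, a ratio of 1.19 (0.46 to 1.94) that lay inside the limit without scaling, at 0.29. Plxnb2 and Ephb4 were the 2 of the 9 higher genes that also had sites in ESC WT. Without UV, Plxnb2 was higher in NPCs as well, with 23 sites against 15 (1.15, 0.26 to 2.10), though at 0.58 before scaling. Ephb4 held 12 against 14 without UV (0.36, -0.74 to 1.43). With ΔZF1, Plxnb2 held 45 NPC sites against 62 ESC sites (0.05, -0.51 to 0.60) and Ephb4 19 against 39 (-0.49, -1.31 to 0.25).

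Plxna1 and Epha2 held sites in both cell types without passing the limits. Plxna1, a receptor for class 3 and class 6 semaphorins, held most guidance sites of all, with 174, 76 and 60 in the ESC lists and 103, 46 and 20 in the NPC lists. Its ratio for NPC WT against ESC WT was 0.15 (-0.21 to 0.49). Epha2 held 54, 52 and 21 ESC sites and 27, 46 and 12 NPC sites, with a ratio of -0.08 (-0.76 to 0.56). Per kb of exon, Plxna1 held 19.0 exonic sites in ESC WT and Sema4b 12.6, Epha4 12.2 and Epha2 10.9. In NPC WT, Plxna1 held 10.7 per kb, Unc5b 9.43, Plxnb2 8.94, Efnb2 7.59, Ephb4 6.90, Epha1 5.86, Sema3c 5.60 and Sema3e 5.06.

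Summed over all 69 genes, the scaled log2 ratio of NPC WT to ESC WT was 1.20 (1.05 to 1.35), and 0.85 (0.70 to 1.01) without Sema3e. In introns it was 3.55 (3.01 to 4.08), from 33 ESC WT sites and 167 NPC WT sites, of which 122 were on Sema3e. In exons it was 0.80 (0.64 to 0.96). Without scaling, the sum was 0.30 higher in NPC WT on the log2 scale, and 8 genes were higher and 5 lower, against 5.16% and 41.9% of all genes.

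The same contrast was taken in the other pairs of lists, which share no list with the WT pair. For NPC ΔZF1 against ESC ΔZF1, 7 of 16 genes were higher and 4 lower, against 10.9% and 14.1% of 5113 genes. For NPC noXL against ESC noXL, 6 of 13 were higher and 3 lower, against 11.1% and 12.3% of 3726 genes. Without scaling, 7 were higher and 5 lower with ΔZF1, against 6.47% and 30% of all genes, and 5 higher and 5 lower without UV, against 5.53% and 30.4%. The summed scaled ratios were 0.70 (0.53 to 0.87) with ΔZF1 and 0.81 (0.59 to 1.03) without UV. Genes without an ESC site again passed the limit of 20 sites through NPC sites alone. Without Sema3e the sums were 0.60 (0.43 to 0.77) and 0.40 (0.16 to 0.63). Without Sema3e, Slit3 and Efna5, the sums were 0.10 (-0.08 to 0.29) with ΔZF1 and 0.18 (-0.06 to 0.43) without UV, both spanning 0. In the WT pair that sum was 0.80 (0.64 to 0.96). These genes held more sites in NPCs than in ESCs in every pair. Leaving out Epha4, which leans to ESCs, instead raised the sums to 0.95 with ΔZF1, 1.16 without UV and 1.47 with WT. The intervals of those sums lay above 0. Epha4 was lowest without UV, at 65 sites in ESCs and none in NPCs, and lowest with ΔZF1 at -4.37 (-6.82 to -3.05). Sema4b was lower at -1.32 (-2.30 to -0.50) with ΔZF1 and -1.44 (-3.17 to -0.20) without UV. Ephb3 with ΔZF1 stood at -2.58 (-4.57 to -1.33) and Robo1 without UV at -1.14 (-2.45 to -0.10). Ntn1 was also lower with ΔZF1, where its 24 sites were all in ESCs, so it passed the limit of 20 sites through ESCs alone.

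**Figure D2:**
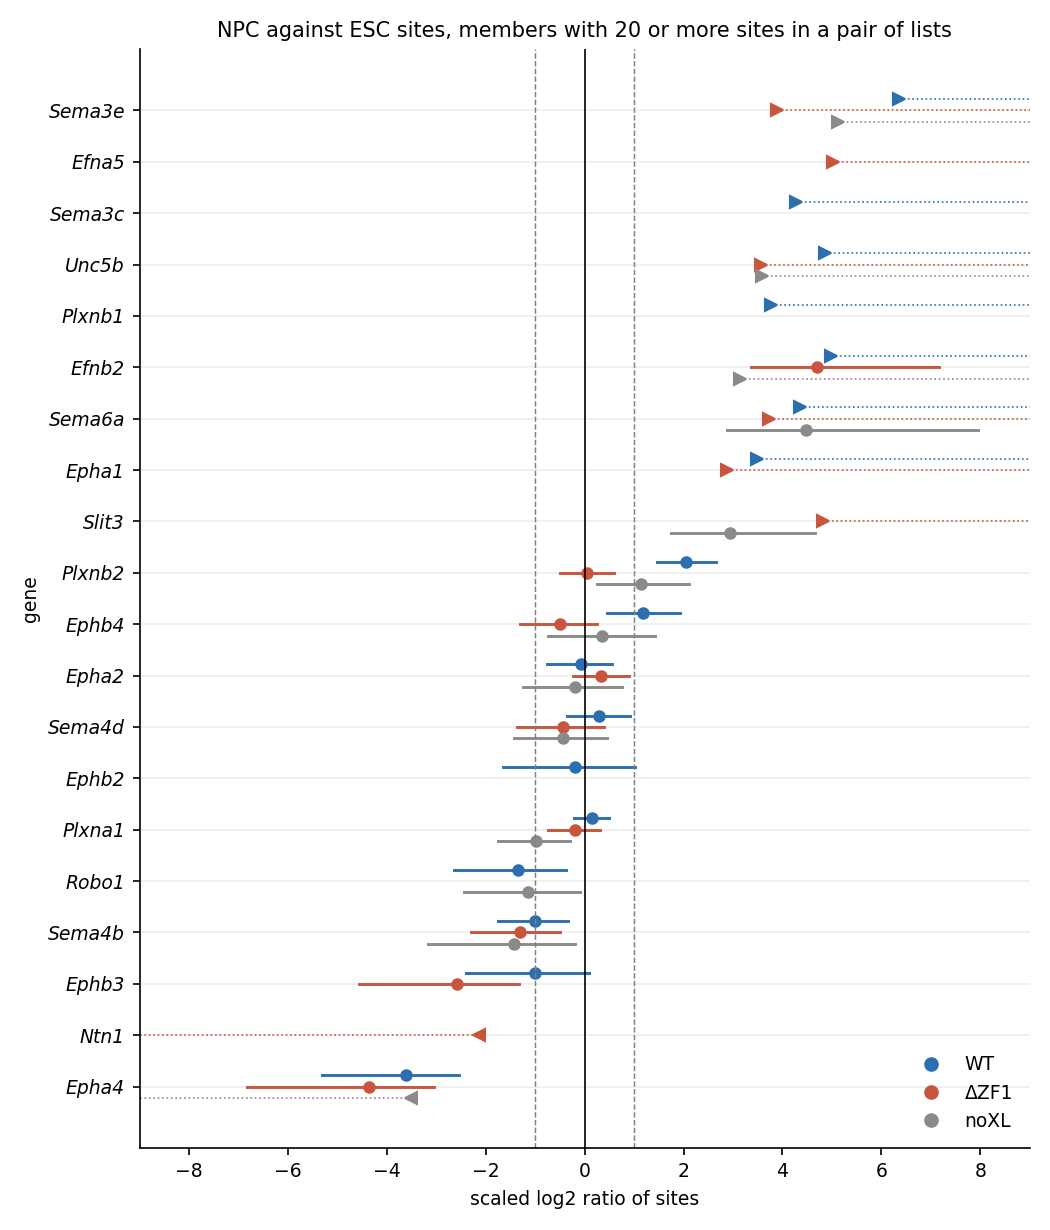
Scaled log2 ratio of sites in NPCs to ESCs for axon guidance genes with at least 20 sites in the lists compared, for WT (blue), ΔZF1 (red) and noXL (grey). Points are ratios with 95% intervals of counting error, triangles with dotted lines are the finite ends of intervals where 1 list had no site, and dashed lines mark 1 and -1. Sema3e, Unc5b, Efnb2 and Sema6a lie to the right in all 3 pairs and Epha4 to the left in all 3, while Plxnb2 and Ephb4 lie past 1 with WT and near 0 or below it with ΔZF1, and Plxnb2 lies past 1 without UV too.

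In 11 of the 69 genes, at least 5 sites in NPC WT stood against none in ESC WT, as in 1.94% of all protein-coding genes. The reverse held for 2 genes, Slit2 and Sema4f, and for 1.9% of all. These were Efna5, Efnb2, Epha1, Epha7, Plxnb1, Sema3c, Sema3e, Sema4c, Sema6a, Slit3 and Unc5b. Summed in the order WT, ΔZF1 and noXL, they held 468, 377 and 246 sites in NPCs and 0, 5 and 6 in ESCs. Another 9 genes held at least 5 sites in both WT lists, namely Epha2, Ephb2, Ephb3, Ephb4, Plxna1, Plxnb2, Robo1, Sema4b and Sema4d. Their sums, not scaled to list length, were 488 in ESC WT and 305 in NPC WT. Exons held 95.7% of the NPC WT sites of these 9 genes and 67.5% of those of the 11, or 90.0% of those of the 10 other than Sema3e.

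The next comparison asked how the sites depended on zinc finger 1. In ESCs, 12 guidance genes had at least 20 sites in the WT and ΔZF1 lists. With ΔZF1, 4 were higher and 0 lower, against 6.84% and 5.45% of 6518 genes. Of the 4, Ntn1 had no WT site, so it could pass only through ΔZF1 and had to be higher. In NPCs, 3 of 15 were higher and 2 lower, against 5.76% and 7.36% of 5274 genes. The summed scaled ratio of ΔZF1 to WT was 0.69 (0.52 to 0.85) in ESCs and 0.19 (0.04 to 0.34) in NPCs. Without scaling, ΔZF1 lists held fewer guidance sites in both cell types, at -0.29 in ESCs and -0.40 in NPCs on the log2 scale, and 1 gene was higher and 2 lower in ESCs, against 1.52% and 47.1% of all genes. In NPCs 2 were higher and 4 lower, against 1.92% and 28.4%. The positive sums thus describe guidance sites relative to the shorter ΔZF1 lists and not a gain in number.

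In ESCs the higher genes were Ntn1, Plxnb2, Ephb4 and Ephb3. Ntn1, which encodes the founding netrin, had 24 sites with ΔZF1 and none with WT, of which 22 lay in exons and 12 on uridine. Plxnb2 went from 32 sites with WT to 62 with ΔZF1, a scaled log2 ratio of 1.91 (1.32 to 2.54). Ephb4 went from 26 to 39 (1.55, 0.85 to 2.27) and Ephb3 from 25 to 33 (1.37, 0.64 to 2.12). Without scaling Ntn1 alone stayed past the limit, and Plxnb2 at 0.93, Ephb4 at 0.57 and Ephb3 at 0.39 lay inside it. At the other end, Robo1 at -0.27 (-1.18 to 0.53), Plxna1 at -0.21 (-0.60 to 0.17) and Sema4b at 0.22 (-0.32 to 0.73) spanned 0.

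In NPCs, ligands stood at both ends. Efna5 went from 11 sites with WT to 88 with ΔZF1, a scaled log2 ratio of 3.48 (2.70 to 4.48). Slit3 went from 11 to 76 (3.27, 2.48 to 4.27) and the receptor gene Epha2 from 27 to 46 (1.33, 0.68 to 2.03). The Epha2 ratio lay inside the limit without scaling, at 0.75, and at 0.78 when sites below the median score of all lists were left out. Sema3e fell short of its WT count, with 40 sites against 169 (-1.46, -1.99 to -0.997), and Sema3c held 11 against 40 (-1.19, -2.22 to -0.33). Plxna1 stood at -0.56 (-1.07 to -0.08), inside the limits. Without Efna5 and Slit3, the highest genes of this comparison, the NPC sum was -0.23 (-0.40 to -0.06). Without Sema3e, the lowest, it was 0.43 (0.27 to 0.60). Without Sema3e, Slit3 and Efna5 together it was -0.01 (-0.19 to 0.17), an interval that spans 0. Slit3 and Ntn1 lie on chromosome 11. There the median ratio of ΔZF1 to WT over all genes was -0.61 in NPCs and -0.47 in ESCs, against 0.00 and 0.07 elsewhere. Slit3 ran against that median in NPCs, while Ntn1 in ESCs, without a WT site, could only be higher.

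**Figure D3:**
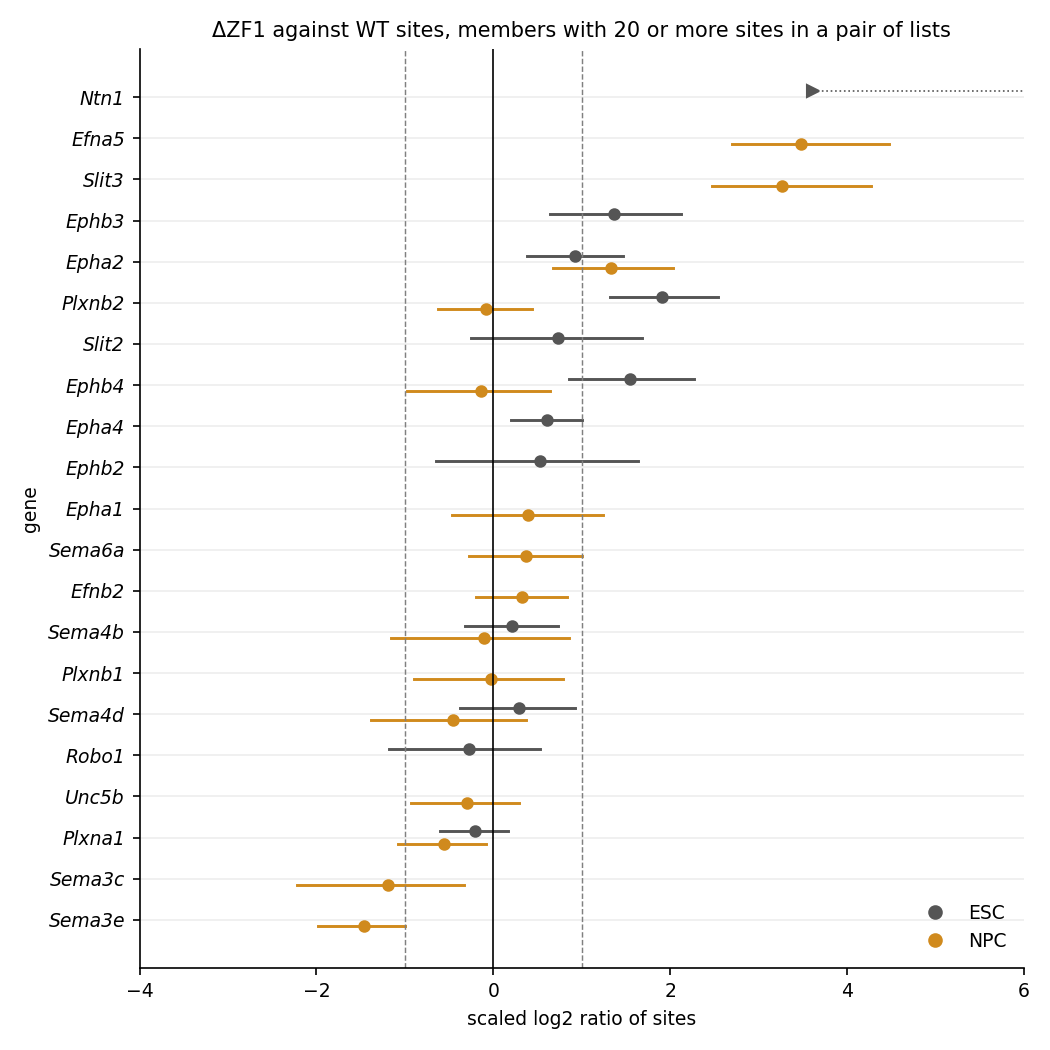
Scaled log2 ratio of sites with ΔZF1 to sites with WT for axon guidance genes with at least 20 sites in the lists compared, in ESCs (grey) and NPCs (orange). Points carry 95% intervals of counting error, the triangle is the lower end of the interval for Ntn1, which had no ESC WT site, and dashed lines mark 1 and -1. Efna5 and Slit3 lie far to the right in NPCs and Sema3e and Sema3c to the left, while Plxnb2 and Ephb4 lie past 1 in ESCs and near 0 in NPCs.

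The positions of these sites along the genes were then compared. Sema3e sites clustered at the start of the gene. Of its 169 NPC WT sites, 105 lay in intron 1, which is 117849 nt long, and 93 lay in the first 40 kb of 231414 nt. In all, 122 were intronic, 32 lay in coding exons and 9 in the 3′ UTR. In NPC noXL, 78 of 90 sites were intronic and 52 lay in the first 40 kb. In NPC ΔZF1, 25 of 40 were intronic. The intronic part differed most between the proteins, with a ratio of ΔZF1 to WT of -2.21 (-2.87 to -1.64) in introns and -0.72 (-1.61 to 0.04) in exons. Uridine lay under 69.2% (61.9 to 75.7%) of the WT sites, 67.5% (52.0 to 79.9%) of the ΔZF1 sites and 32.2% (23.5 to 42.4%) of the sites without UV. The highest-scoring WT site, shown above, was a G in intron 1.

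The ΔZF1 sites of Efna5 and Slit3 were also mainly intronic. On Efna5 (chr17:62604184-62881317, minus strand) 85 of 88 NPC ΔZF1 sites were intronic, 82 of them in intron 1, 40 of the 88 lay in the first 40 kb and 6 past the midpoint of the gene. On Slit3 (chr11:35121224-35708507, plus strand) 66 of 76 were intronic, 60 of them in intron 4, which is 273314 nt long, while 5 of the 76 lay in the first 40 kb and 4 past the midpoint of the gene. Against WT the intronic ratio was 3.46 (2.55 to 4.72) for Efna5 and 3.78 (2.68 to 5.48) for Slit3. In exons it was 0.54 (-1.55 to 2.44), from 3 and 4 sites, and 1.32 (0.03 to 2.72), from 10 and 7 sites. Uridine lay under 65.9% (55.5 to 75.0%) of the ΔZF1 sites of Efna5 and 51.3% (40.3 to 62.2%) of those of Slit3. Without UV, uridine lay under 1 of 15 sites on Efna5 and 0 of 25 on Slit3, which allows a share of up to 13.3%. A noXL control of the ΔZF1 line was not analysed here, so its background on these introns was not tested.

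**Figure D4:**
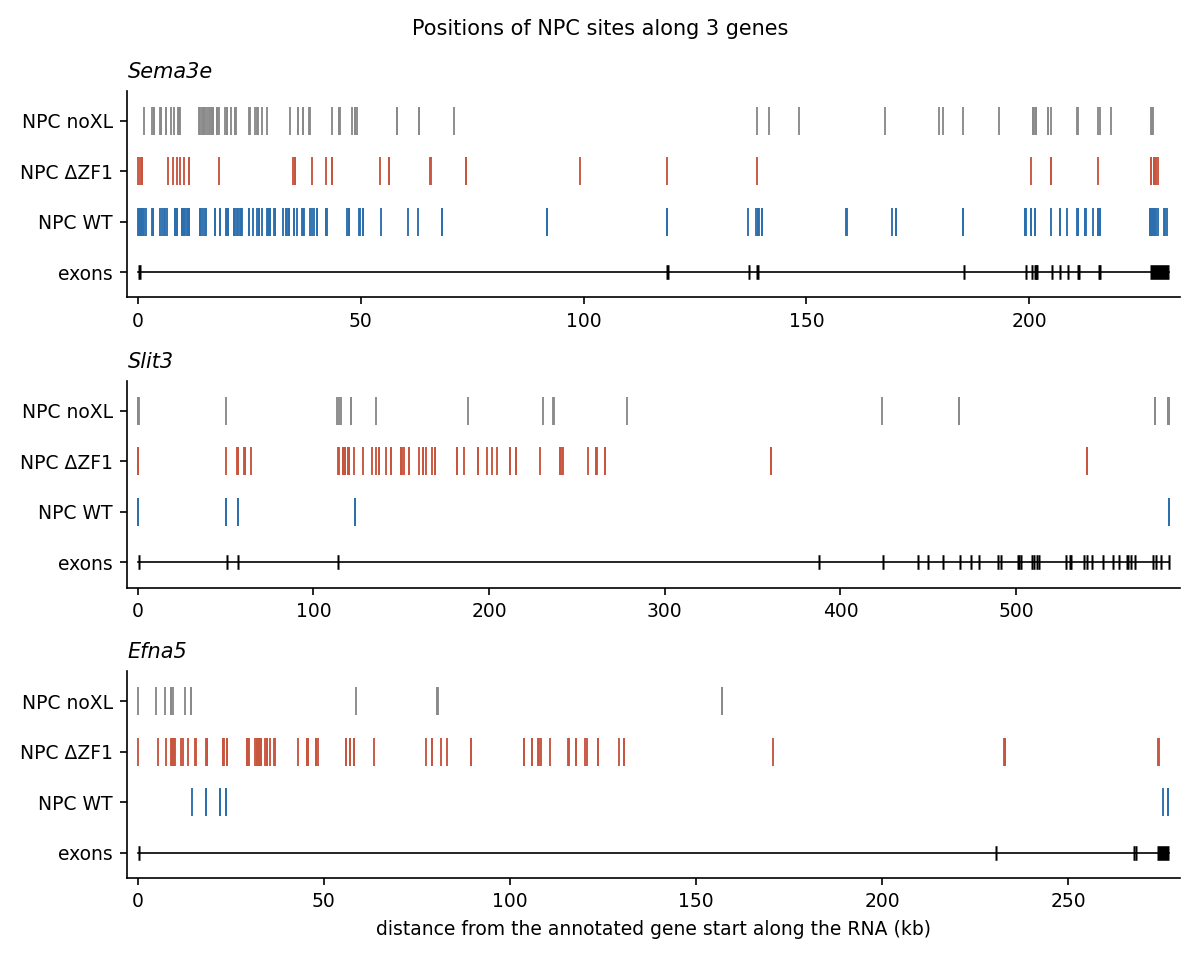
Each tick is 1 site of NPC WT (blue), NPC ΔZF1 (red) or NPC noXL (grey) along Sema3e, Slit3 and Efna5, by distance in kb from the annotated start of the gene in the direction of transcription, with exons of 1 transcript as black boxes. Sema3e sites crowd the first 40 kb in WT and noXL, and the ΔZF1 sites of Slit3 and Efna5 lie mostly before the midpoint of each gene, where WT has few.

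Intronic sites were also found on Epha4, with 15 of 113, 26 of 87 and 19 of 65 sites in the ESC lists, and on Efnb2, with 13 of 65 NPC WT sites and 27 of 54 NPC ΔZF1 sites. In contrast, all 40 NPC WT sites of Sema3c, 59 of 60 of Unc5b, all 23 of Epha1 and 69 of 72 of Plxnb2 lay in exons. The ESC WT sites of Plxna1 lay mainly in coding exons, with 130 of 174 there and 35 in the 3′ UTR. Of the 113 ESC WT sites of Epha4, 51 lay in coding exons and 42 in the 3′ UTR.

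The background without UV was substantial. Relative to the whole lists, guidance genes held fewer sites in ESC WT than in ESC noXL, with a summed scaled log2 ratio of -0.41 (-0.61 to -0.21), and in NPCs the ratio was -0.03 (-0.20 to 0.15). Without scaling, the WT lists held 2.14 times as many guidance sites as noXL in ESCs and 2.22 times in NPCs. With scaling, in ESCs 0 of 11 genes were higher with UV and 1 was lower, against 8.12% and 6.6% of 6208 genes. That gene was Slit2, with 18 sites with UV and 16 without (-1.35, -2.29 to -0.38). In NPCs, 2 of 15 were higher and 2 lower, against 10.5% and 6.51% of 4765 genes. Sema3c (1.60, 0.53 to 3.12) and Plxna1 (1.13, 0.51 to 1.88) were higher with UV. Slit3 (-2.29, -3.36 to -1.36) and Efna5 (-1.59, -2.72 to -0.53) were lower, each with 11 sites with UV. Without scaling the calls became 6 higher and 0 lower in ESCs, against 82.8% and 0.306% of all genes, and 9 higher and 1 lower in NPCs, against 63.5% and 0.441%. The interval of Sema3e, at -0.27 (-0.63 to 0.10), spanned 0.

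The base under the site did separate crosslinked from control lists. UV at this wavelength links uridine to protein most readily. In ESCs, uridine lay under 54.9% (51.0 to 58.7%) of guidance sites with WT, 52.4% (48.1 to 56.6%) with ΔZF1 and 28.8% (24.0 to 34.2%) without UV. For NPCs these values were 63.4% (60.0 to 66.7%), 55.0% (51.0 to 58.9%) and 24.0% (19.8 to 28.6%). The WT share exceeded the noXL share by 26.1 points (19.5 to 32.2) in ESCs and 39.5 points (33.7 to 44.8) in NPCs. WT exceeded ΔZF1 by 8.48 points (3.28 to 13.6) in NPCs and by 2.51 points (-3.21 to 8.21) in ESCs, an interval that spans 0. The nucleotide before the site was a uridine in 50.9% of NPC WT sites and 43.6% of ESC WT sites, against 23.8% in ESC noXL.

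Compared with all other genic sites, the uridine share of guidance sites differed by -5.79 points in ESC WT (-9.64 to -1.99) and by -4.06 points in NPC ΔZF1 (-8.05 to -0.12), and the intervals spanned 0 in the other 4 lists. Guidance sites were the more exonic ones in ESCs. There, exons held 94.9% (92.9 to 96.3%) of them with WT, 88.7% (85.7 to 91.1%) with ΔZF1 and 83.4% (78.8 to 87.2%) without UV, against 66.6%, 68.1% and 59.8% of all genic sites. In NPCs exons held 79.0% (76.1 to 81.7%), 58.1% (54.1 to 62.0%) and 63.2% (58.1 to 68.1%), against 73.1%, 60.4% and 57.4%. Leaving out the gene with most sites took the exonic share to 92.8% in NPC WT, where that gene was Sema3e, and to 67.4% in NPC ΔZF1, where it was Efna5.

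**Figure D5:**
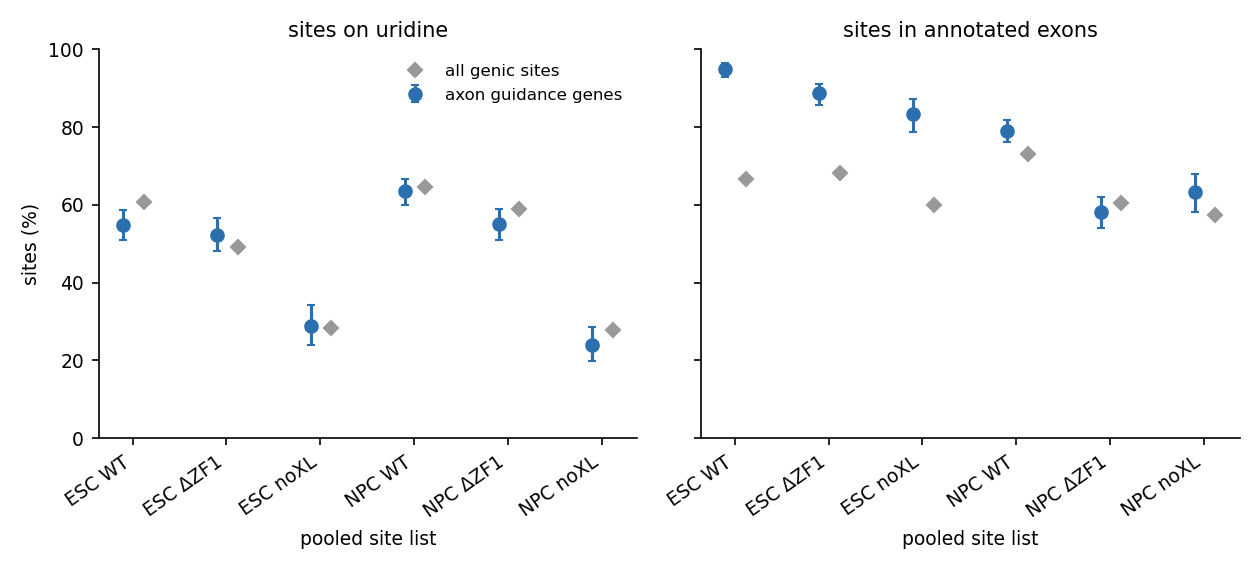
Share of sites on uridine (left) and in annotated exons (right), in %, for axon guidance genes (blue circles, bars are 95% Wilson intervals) and for all genic sites (grey diamonds) in the 6 pooled lists. For guidance sites, uridine is above 50% in the 4 crosslinked lists and below 30% in both noXL lists. Their exonic shares lie far above those of all sites in the ESC lists and near them in NPC ΔZF1.

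By score, guidance sites were average members of their lists. Between 45.4% (NPC noXL) and 49.5% (NPC ΔZF1) of them lay above the median score of their list in 5 lists, and 57.0% (51.3 to 62.4%) in ESC noXL. The highest-scoring guidance site of ESC WT, ESC noXL, NPC ΔZF1 and NPC noXL was 1 uridine in the 3′ UTR of Ntn3, at position 24205653 of chromosome 17. No other gene on that strand spans this position, although 40% of all Ntn3 sites also lay inside another gene. It was the only guidance position called in all 6 lists, and its score was 85.0 in ESC WT and 166.7 in NPC noXL, so it was called with and without UV. In NPC WT the highest-scoring site was nt 2 of Efnb2, with a score of 51.3.

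Sites seldom recurred at a position. Of all guidance positions, 2896 were called in 1 list and 123 in 2. Of the NPC WT guidance sites, 9.17% (7.36 to 11.4%) had an ESC WT site within 5 nt on the same strand, against 28.2% of all genic NPC WT sites, and 468 of these 796 guidance sites lay on the 11 genes without an ESC WT site. The share was 20.2% (17.0 to 23.9%) for ESC ΔZF1 sites near an ESC WT site and 11.1% (8.83 to 13.8%) for NPC ΔZF1 sites near an NPC WT site, against 24.2% and 13.1% of all genic sites. Of the ESC WT guidance sites 10.2% lay near a site of ESC noXL, and of those of NPC WT 4.27% near a site of NPC noXL, against 7.67% and 5.64% of all.

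Genes that act with these ligands and receptors were counted from lists of known partners. Of 34 co-receptors and other guidance cues, 33 were found, and 10 had enough sites in the WT lists. The receptor gene Met, with 3 ESC WT sites and 31 NPC WT sites, Cdon with 11 and 55, and Fzd3 with 12 and 17 were higher in NPC WT, and the hedgehog receptor gene Ptch1 was lower, with 61 and 2. The median of the 10 was 0.30, and 3 higher and 1 lower gene are read against 11.5% and 10.4% of all genes and their median of 0.04. Of 62 cytoplasmic effectors, 26 had enough sites. In NPC WT 8 were higher, among them the guanine nucleotide exchange factor genes Trio with 0 and 52 sites and Farp1 with 8 and 43, the kinase gene Rock2 with 83 and 157, and Dpysl2 with 3 and 23. Only Dock1, with 37 and 9, was lower, and the median over the 26 was 0.26, against the same shares and median of all genes. Trio, without an ESC WT site, passed the limit through NPC WT alone, and it held 11 sites in ESC noXL. Without UV, 7 of 24 effectors were higher and 2 lower, against 11.1% and 12.3% of 3726 genes, with a median of 0.52. With ΔZF1, 9 of 26 were higher and 1 lower, against 10.9% and 14.1% of 5113 genes, with a median of 0.59.

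The genes whose sites were spread over the 6 lists most like those of Sema3e were Meis2, Thsd7a, Ptpn13, Unc5b and Thbs1, by the cosine of their scaled log2 counts over 6 lists among 4015 genes. The cosines ran from 0.997 to 1.000. None of these 5 genes had a site in an ESC list, which follows from their choice by likeness to Sema3e. Meis2, a homeobox gene, held 101, 29 and 58 sites in the NPC lists, and Thsd7a held 56, 15 and 38.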

How the data were processed

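CTCF iCLIP2 sites were analysed from the deposited site lists, 1 per group of 3 or 4 libraries, 23 in all. Processing by the authors comprised trimming (Flexbar), alignment to mm10 (STAR), removal of duplicates with UMI-tools and, after merging each group, site calling (PureCLIP). Each deposited site carries the score of that caller, a quantity without scaling to depth that ranked sites within a list here.

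A site was counted for a gene when it lay on its strand inside its body (GENCODE M21, autosomes, X and Y). Exonic means inside an exon of any transcript of the gene. Log2 ratios used a pseudocount of 1, were scaled to genic sites and needed 20 sites in the pair of lists. A count of 3 was the floor for folds. Ratio intervals were derived from the split of a gene's sites between 2 lists, and intervals of differences of shares by Newcombe's method. The members and lists were chosen with earlier results of these data known. Named were members with 50 or more WT sites over both cell types, the 3 highest and 3 lowest ratios of each comparison, Sema3e, and the 5 genes most like it. Other genes named were chosen after their values were seen. Alternatives changed the score minimum, bases, merging within 8 nt, removal of sites within 5 nt of noXL sites, overlapping genes, pseudocount, scaling and minimum counts. The calculations were tested on simulated data. Python 3.11.15 with numpy 2.4.6, pandas 2.3.3 and pysam 0.24.0 was used.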

Additional observations from a re-analysis of the deposited data

Results flagged for a closer look

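In 4 genes, ΔZF1 and WT sites compared on the scaled log2 scale gave opposite signs in the cell types. Plxnb2 stood at 1.91 in ESCs and -0.08 in NPCs and Ephb4 at 1.55 and -0.14, and the NPC intervals of both spanned 0 (-0.63 to 0.44 and -0.97 to 0.64). Sema4b stood at 0.22 and -0.10 and Sema4d at 0.29 and -0.46, and all 4 of these intervals spanned 0. These differences between the cell types were not tested, because each group is 1 pooled list.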

How the results depend on the processing

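No paired analysis was possible because every list was called on pooled libraries, and a single library could therefore not be left out. The summed ratios of ΔZF1 to WT and of WT to noXL changed sign in both cell types without scaling, as did that of NPC WT to noXL on uridine sites. No gene past the limits changed to the opposite side under the alternatives run. Of 259 alternative values of group results, 196 stayed within the spread used to judge them and 63 moved. Of 368 for single genes, 343 stayed and 25 moved. The cause of these moves was not tested. In the values that follow, the order of lists is WT, ΔZF1 and noXL. At a minimum of 20 sites, the genes with sites numbered 9, 9 and 5 in ESCs and 13, 10 and 7 in NPCs, and at 1 site 28 and 27 for ΔZF1 and noXL in ESCs and 31 and 30 in NPCs. On uridine sites alone, 6 genes in ESC noXL and 5 in NPC noXL had enough sites. Without scaling, the summed log2 ratios were 0.30 (NPC against ESC, WT), 0.19 (ΔZF1) and 0.25 (noXL), -0.29 and -0.40 for ΔZF1 against WT in ESCs and NPCs, and 1.10 and 1.15 for WT against noXL. In introns alone they were 3.55, 2.27 and 1.88 between cell types, 1.91 and 0.63 for ΔZF1 against WT, and -1.84 for ESC WT against noXL. In exons alone they were 0.80, 0.26 and 0.47 between cell types and 0.019 for ΔZF1 against WT in NPCs, and Sema3e stood at 6.35. On uridine sites they were 0.51 (ΔZF1) and 0.57 (noXL) between cell types, 0.92 for ΔZF1 against WT in ESCs and 0.17 for WT against noXL in NPCs. The 9 genes higher in NPC WT than in ESC WT became 5 with high-scoring sites only (a score of at least 3.02), 1 in introns and 5 at 50 sites. With high-scoring sites, the 4 lost genes (Epha1, Plxnb1, Sema3c and Sema6a) fell under 20 sites, and none came inside the limits. The 2 lower genes became 1 with high-scoring sites, 4 in exons, 0 in introns, 4 with a pseudocount of 0.5, 5 without scaling, 4 scaled by the median gene and 1 at 50 sites. For ΔZF1 against WT, the 4 higher genes in ESCs became 1 in introns and 1 without scaling, and the 0 lower genes became 2 without scaling. Ephb3 also lay inside the limit on uridine sites, at 0.999. In NPCs the 3 higher became 1 in exons, and Epha2 was lost without scaling (0.75) and with high-scoring sites (0.78), while the 2 lower became 1 with high-scoring sites, 1 in exons, 1 in introns, 4 without scaling and 4 at 10 sites. With high-scoring sites, the uridine share of NPC WT was 68.8% and exonic shares were 83.6% in NPC WT and 87.9% in ESC noXL. With uridine sites, the exonic share of ESC WT was 96.6%, and 53.2% of ESC WT and 64.4% of ESC noXL sites lay above the median score. Without the gene with most sites, exonic shares were 92.3% in ESC ΔZF1, 92.8%, 67.4% and 79.9% in the NPC lists. All 26 values with sites near noXL sites removed, all 38 with sites inside a single gene and all 20 with merged sites stayed. The depth of the libraries is unknown, and small counts limit what single genes can show.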

Other observations

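Sites on the strand opposite to the guidance genes were few, with 12, 4 and 0 in the ESC lists for WT, ΔZF1 and noXL and 5 in each NPC list. In ESC WT, 5 of the 12 lay opposite Epha5 and 5 opposite Ephb1, genes without a site on their own strand in any list.

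Sites in the first 10 nt of an annotated gene numbered 9 in ESC WT, on Epha2, Epha4, Ephb4, Plxna1 and Plxna3, and 6 in NPC WT, on Efnb1, Efnb2, Epha2, Sema3e and Unc5b. In the noXL lists they numbered 3 in ESCs and 1 in NPCs.

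Nrp2, which encodes a co-receptor for class 3 semaphorins, held 12 sites in NPC ΔZF1, all exonic and 3 on uridine, and none in NPC WT or NPC noXL.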
